A study of Mus musculus with 11 samples.

Results

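The genes described here are the 60 mouse genes of the short-range and long-range guidance families in the table: Eph receptors, ephrins, semaphorins, plexins, neuropilins, Slits and Robo receptors. They were found by gene symbol among 23286 rows, and no expression value was used in that search. The set itself was chosen with earlier results of these data known. The rows were named from their RefSeq transcript accessions. Measurements came from polyA RNA of primary mouse embryonic palatal mesenchyme cells, cultured from mid-gestation palates (E13.5), where such cells form the connective tissue of the palatal shelves. The tested groups were cells given 30 ng/mL PDGFA for 1 h (4 libraries) and cells given 50 ng/mL FGF1 together with 1 µg/mL heparin for 1 h (3 libraries). Both were set against starved, unstimulated cells (4 libraries). All 3 groups had been grown in medium with 10% serum and kept overnight in 0.1% serum. No strain or genotype is given in the labels, and nothing there says whether libraries came from separate litters or cultures. Only the FGF1 cells received heparin and the ligand concentrations differed, so FGF1 and heparin cannot be told apart.

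Eph receptors are receptor tyrosine kinases whose ligands, the ephrins, sit on the neighbouring cell's membrane, so the pair signals at cell contacts and sorts cells at tissue boundaries. Semaphorins act mainly through plexins, with neuropilins as ligand-binding co-receptors for most of the secreted class 3 members, and Slits are secreted ligands of Robo receptors. Signalling between B-type ephrins and EphB receptors is known to be needed for palate formation in mice, and human EFNB1 is the gene of craniofrontonasal syndrome.

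Each group is represented by 1 FPKM value per gene (fragments per kilobase of transcript, scaled to library size), made by the authors from all libraries of the group, and by the lower and upper bound of the deposited interval, given below in brackets. There is no value per library and hence no SD, and depth is unknown. A gene was called when the intervals of the compared groups lay wholly apart. This describes group estimates and is not a test over replicates. It was applied to 11702 rows with at least 1 FPKM in a group. Log2 folds were taken on FPKM + 0.5, which understates those of low genes. Ratios are of FPKM as deposited, with intervals that combine both bounds as if they were 95% limits. The PDGFA and FGF1 comparisons share the starved cells. In bulk RNA, fewer cells of a type and less RNA per cell cannot be told apart.

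Of the 60 genes, 43 reached 1 FPKM in at least 1 group and 17 did not. The families differed widely in level in these cells, and Sema3c, which encodes a secreted semaphorin, and Plxnb2, a class B plexin, had the highest levels. In starved cells Sema3c stood above 98.1% of all compared rows and Plxnb2 above 96.4%. Starved cells held 25 of the genes at 10 FPKM or more and 17 between 1 and 10 FPKM. Ordered by starved level, the 43 genes gave 42 neighbouring pairs, of which 1 had intervals that lay apart, with Plxnd1 above Sema4d. Neighbours in a sorted list lie close together, so this count cannot show whether the levels form separate groups.

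**Figure D1:**
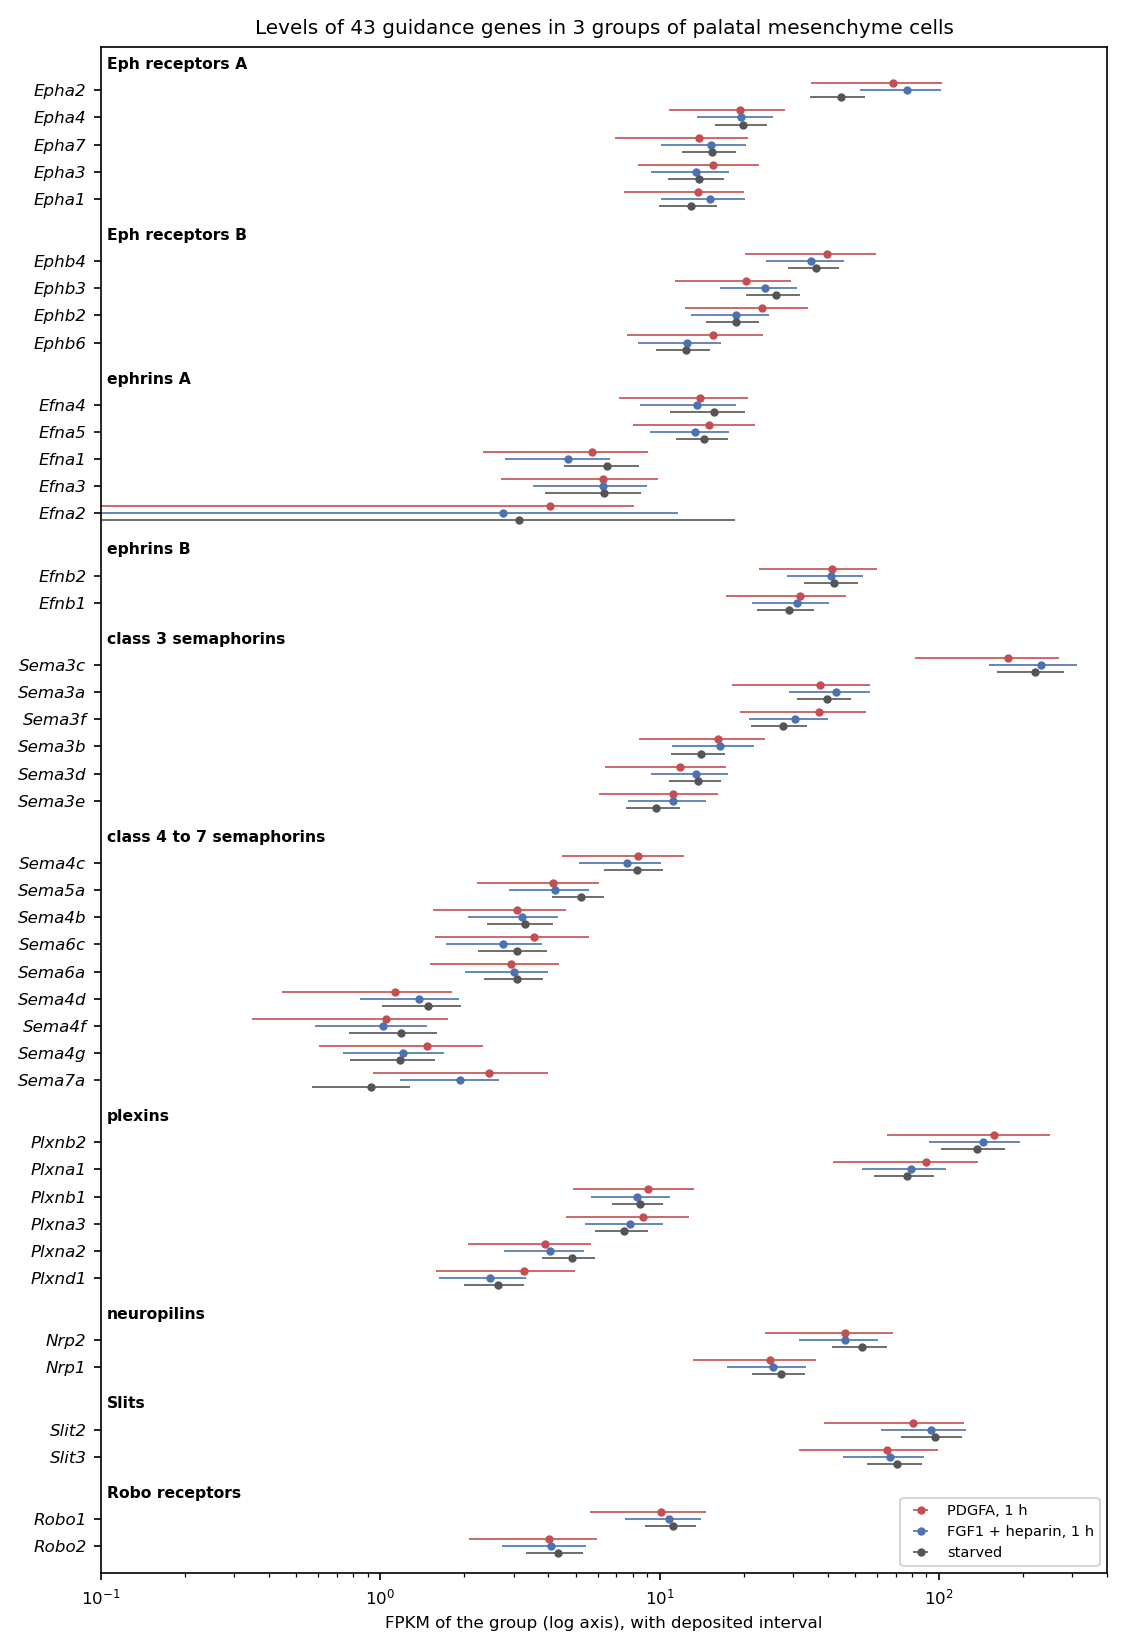
FPKM of the 43 compared guidance genes (log axis), grouped by family, in PDGFA, FGF1 with heparin and starved cells; points are the authors' group values and bars their deposited intervals. Within each gene the 3 intervals overlap, while the lowest gene was Sema4f in PDGFA and FGF1 cells (1.05 and 1.03 FPKM) and Sema7a in starved cells (0.925 FPKM), and the highest was Sema3c, with 176 FPKM in PDGFA cells, 232 FPKM in FGF1 cells and 221 FPKM in starved cells.

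No guidance gene was called in any comparison: 0 of 43 for PDGFA against starved cells, where 0.308% of all compared rows were called, 0 of 43 for FGF1 against starved cells (0.555% of rows) and 0 of 43 for FGF1 against PDGFA (0.12% of rows). At those background shares a set of this size would hold less than 1 called gene. For scale, of 10 growth factor response genes, a panel with Egr1, Fos, Junb and Dusp6 that was chosen with their values in these data known, 7 were called higher with PDGFA and 10 with FGF1, with median log2 folds of 2.33 and 2.76. The guidance genes had median log2 folds of −0.005 with PDGFA (all rows −0.003) and −0.036 with FGF1 (all rows 0.020). Their median for FGF1 over PDGFA was −0.006 (all rows 0.014). Values above starved were held by 21 of 43 genes with PDGFA, 48.8% against 49.3% of all rows. With FGF1 they were held by 15 of 43, 34.9% against 56.0% of all rows. The log2 fold lay within 0.3 of 0 for 34 of 43 genes with PDGFA and 40 of 43 with FGF1. The share of all rows within 0.3 was not counted. The median size of the log2 fold with PDGFA was 0.178 for guidance genes and 0.151 for all rows. With FGF1 it was 0.079 for guidance genes and 0.088 for all rows.

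**Figure D2:**
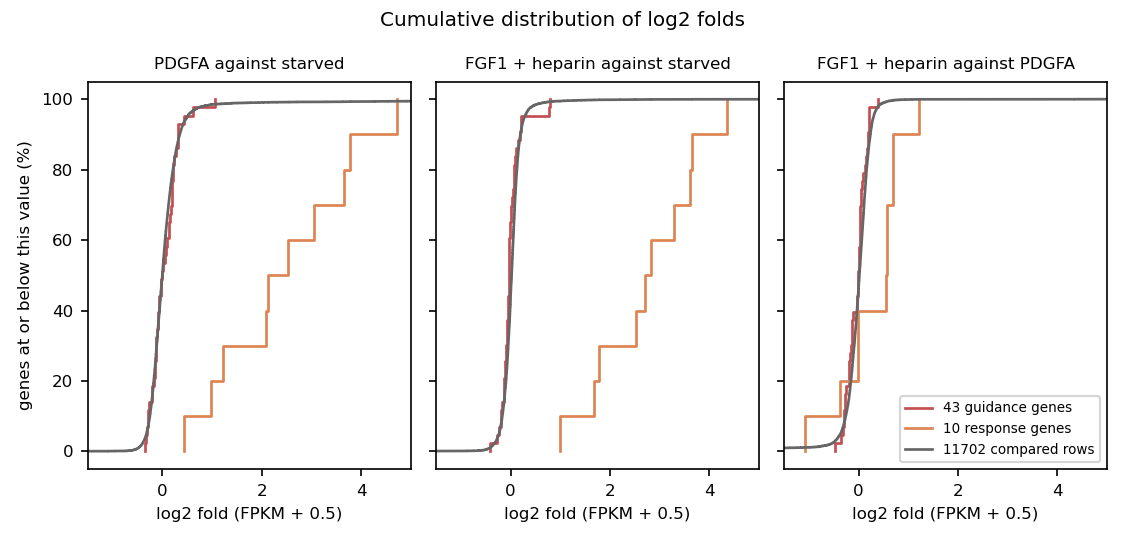
Cumulative share of genes (%) by log2 fold for the 43 guidance genes, the 10 response genes and the 11702 compared rows, in each of the 3 comparisons. With PDGFA the curve of the guidance genes runs close to that of all rows apart from single genes at the upper end, and with FGF1 it lies to the left of it over most of its range, with 34.9% of guidance genes and 56.0% of all rows above 0, while the response genes lie to the right in both ligand panels.

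The intervals set how small a difference could be called. For the median guidance gene, intervals of the observed relative width would lie apart only if PDGFA stood more than 2.39-fold above starved cells (2.18 to 4.08 over 42 genes). For FGF1 above starved cells the figure was 1.81-fold (1.73 to 2.41), and for FGF1 above PDGFA 2.19-fold (2.07 to 2.94). The limits for falls differ, because the groups' intervals differ in relative width, and were not computed. The ratio interval lay inside 2-fold in both directions for 24 of 43 genes with PDGFA, for 38 of 43 with FGF1 and for 21 of 43 between the ligands. A smaller rise was therefore not detectable with these intervals, and a fall has a limit of its own. Uncalled differences in either direction are not shown to be absent.

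Among the EphA receptors, Epha2 held the highest level and the widest separation between groups. Its receptor binds ephrin-A1 and is known from other cells as a target of RAS and ERK signalling. Epha2 had 68.7 FPKM [35.0 to 102] in PDGFA cells and 76.9 FPKM [52.4 to 102] in FGF1 cells, against 44.4 FPKM [34.6 to 54.3] in starved cells. Both ligand groups had the higher estimate, and with FGF1 the lower bound lay just below the upper bound of starved cells. The ratio to starved cells was 1.55 [0.902 to 2.65] with PDGFA and 1.73 [1.17 to 2.55] with FGF1, log2 folds of 0.62 and 0.78. FGF1 over PDGFA gave a ratio of 1.12 [0.623 to 2.01]. With a smooth trend on GC content, transcript length and level removed, the log2 folds were 0.41 with PDGFA and 0.68 with FGF1. Epha2 made up 52.3% of the summed EphA FPKM in PDGFA cells and 54.8% in FGF1 cells, against 41.6% in starved cells.

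Sema7a had the largest relative separation of all 43 genes in the PDGFA comparison, at a low level. It encodes a membrane-anchored semaphorin that binds beta-1 integrin and plexin C1. Sema7a had 2.45 FPKM [0.942 to 3.98] in PDGFA cells and 1.92 FPKM [1.17 to 2.66] in FGF1 cells, against 0.925 FPKM [0.570 to 1.28] in starved cells. It is the 1 gene of the 43 that passed the minimum only through the ligand groups. The ratio to starved cells was 2.65 [1.28 to 5.49] with PDGFA and 2.08 [1.21 to 3.59] with FGF1, and the deposited intervals overlapped at their ends in both. FGF1 over PDGFA gave 0.784 [0.378 to 1.63]. Without the trend its log2 folds were 0.92 and 0.80, against 1.05 and 0.77 with it. Of its binding partners, Plxnc1 was under 1 FPKM in every group, while the integrin gene Itgb1 had 492 FPKM in PDGFA cells and 592 FPKM in FGF1 cells, against 543 FPKM in starved cells.

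**Figure D3:**
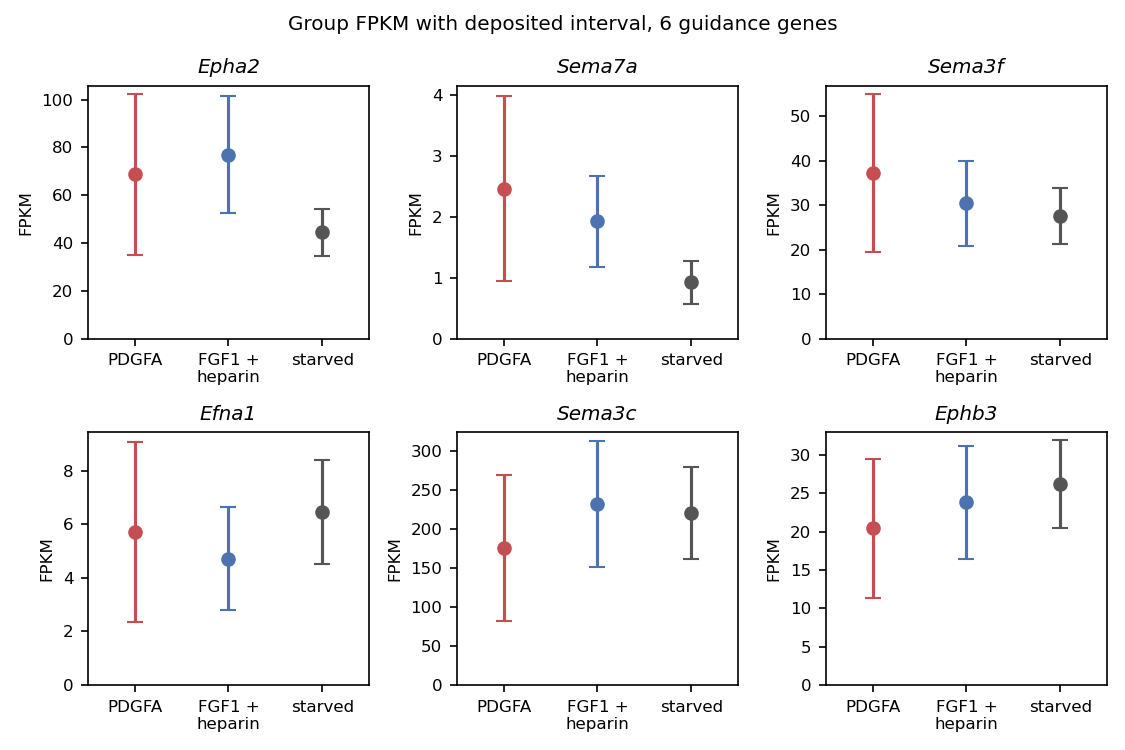
Group FPKM with deposited interval (bars) of Epha2, Sema7a, Sema3f, Efna1, Sema3c and Ephb3 in PDGFA, FGF1 with heparin and starved cells, each panel on its own axis from 0. Epha2 and Sema7a have the lowest point in starved cells, Efna1 and Ephb3 the highest, and no pair of intervals lies apart.

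Efna1, the gene of the GPI-anchored ligand ephrin-A1, had the lowest log2 fold of the 43 genes with FGF1. It had 5.72 FPKM [2.34 to 9.10] in PDGFA cells and 4.71 FPKM [2.79 to 6.63] in FGF1 cells, against 6.48 FPKM [4.53 to 8.42] in starved cells. The ratio to starved cells was 0.884 [0.456 to 1.71] with PDGFA and 0.727 [0.438 to 1.21] with FGF1. Its estimates thus ran opposite to those of its receptor gene Epha2 in both ligand groups, inside overlapping intervals.

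A less strict rule, added after the data were seen, divided each difference by the interval widths. These z values were then shifted by their median over all rows and rescaled to their own spread over all rows. That spread was only 0.549 with PDGFA, 0.398 with FGF1 and 0.427 between the ligands, where intervals of the right width give 1. The rule called 1 of 43 guidance genes with PDGFA, Sema7a, where it called 1.63% of all rows. With FGF1 it called 3 of 43, Epha2 and Sema7a higher and Efna1 lower, where it called 3.72% of all rows. Between FGF1 and PDGFA it called 0 of 43 (1.8% of rows). The counts for PDGFA and FGF1 lie above these shares, by less than 2 genes each. Sema7a is in both counts and passed the minimum only through the ligand groups. The excess is therefore not read as a result about the guidance genes. The same z values without the shift and rescaling called 0 guidance genes in each comparison.

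The upstream sequences of these 3 genes are shown because no other guidance gene was called under any rule. They are 300-base windows from RefSeq (GRCm38.p6, which is build mm10), from 250 bases before to 50 bases after a transcript start, and were chosen after the values were seen. The table held windows for 53 of the 60 genes, 69 windows in all. The Epha2 window is chr4:141300971-141301270 on the plus strand, the Sema7a window chr9:57939862-57940161 on the plus strand and the Efna1 window chr3:89280902-89281201 on the minus strand. Capitals mark a match to a searched motif.
Epha2: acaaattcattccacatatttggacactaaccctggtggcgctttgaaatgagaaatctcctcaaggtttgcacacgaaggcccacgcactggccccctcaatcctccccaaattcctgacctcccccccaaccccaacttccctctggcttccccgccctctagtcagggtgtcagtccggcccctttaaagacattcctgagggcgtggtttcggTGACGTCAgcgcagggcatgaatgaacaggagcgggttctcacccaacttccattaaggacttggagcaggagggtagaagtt
Sema7a: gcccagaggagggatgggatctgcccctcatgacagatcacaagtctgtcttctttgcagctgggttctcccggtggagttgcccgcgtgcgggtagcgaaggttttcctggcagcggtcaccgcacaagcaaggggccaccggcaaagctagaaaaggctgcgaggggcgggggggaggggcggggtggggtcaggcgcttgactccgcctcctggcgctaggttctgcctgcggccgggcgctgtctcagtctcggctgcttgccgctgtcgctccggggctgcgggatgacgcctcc
Efna1: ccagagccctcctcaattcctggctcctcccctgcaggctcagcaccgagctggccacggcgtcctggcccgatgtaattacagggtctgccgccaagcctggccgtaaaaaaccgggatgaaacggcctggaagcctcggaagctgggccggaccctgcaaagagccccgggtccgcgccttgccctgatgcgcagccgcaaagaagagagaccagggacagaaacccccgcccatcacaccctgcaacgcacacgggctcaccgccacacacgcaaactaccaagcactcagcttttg

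The search covered both strands for the letters of 5 motifs bound by growth factor responsive factors. The cyclic AMP response element TGACGTCA occurred once in the Epha2 window, from position −33 relative to the start, and in 1.79% of all 32851 windows. Epha2 held the only such match among the 69 guidance gene windows. None of the motifs was found in the windows printed for Sema7a and Efna1. A second Efna1 start, at chr3:89279596-89279895, held GCGAGGGCG, a match to the EGR motif GCGNGGGCG, from position −59. The EGR motif occurred in 13 of 69 guidance windows, 18.8%, and in 5.55% of all windows, but the guidance windows were richer in G and C, with a median of 64.0% against 52.7% over all windows. The AP-1 motif TGANTCA was in 4.35% of guidance windows and 7.81% of all, the ETS motif CCGGAA in 8.70% and 14.9%, and the CArG box in 2.90% and 1.63%. A match describes letters only and is no evidence of binding.

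The other EphA receptors kept close to their starved values. Epha4, a receptor for both ephrin classes, had 19.5 FPKM in PDGFA cells and 19.6 FPKM in FGF1 cells, against 20.0 FPKM in starved cells. Epha7 had 13.8 FPKM in PDGFA cells and 15.2 FPKM in FGF1 cells, against 15.4 FPKM in starved cells. Epha3 had 15.6 FPKM in PDGFA cells and 13.49 FPKM in FGF1 cells, against 13.9 FPKM in starved cells. The spacing of these values is far inside intervals that reach 20% or more to either side. Epha1 had 13.8 FPKM in PDGFA cells and 15.2 FPKM in FGF1 cells, against 13.0 FPKM in starved cells, a ratio of 1.17 [0.778 to 1.76] with FGF1. Its value is uncertain, because 6.0% of its exon bases lie across from exons of Zyx on the other strand, the counting is not stated to use strand, and Zyx had 521 FPKM in PDGFA cells and 485 FPKM in FGF1 cells, against 361 FPKM in starved cells. How much of the Epha1 value came from Zyx was not tested.

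The EphB receptors, which bind the B-type ephrins, summed to 99.3 FPKM in PDGFA cells and 90.2 FPKM in FGF1 cells, against 93.7 FPKM in starved cells. Ephb4, the receptor of ephrin-B2, led them with 39.9 and 34.9 FPKM in PDGFA and FGF1 cells, against 36.2 FPKM in starved cells. Ephb3, which acts with Ephb2 in mouse palate formation, had 20.4 FPKM [11.3 to 29.5] in PDGFA cells and 23.8 FPKM [16.5 to 31.2] in FGF1 cells, against 26.2 FPKM [20.4 to 31.9] in starved cells. That was the lowest log2 fold with PDGFA of the 43 genes, −0.35, with a ratio of 0.781 [0.476 to 1.28]. Ephb2 had 23.3 FPKM in PDGFA cells and 18.8 FPKM in FGF1 cells, against 18.7 FPKM in starved cells. Ephb6, whose kinase domain is inactive, had 15.6 FPKM in PDGFA cells and 12.5 FPKM in FGF1 cells, against 12.5 FPKM in starved cells, a PDGFA ratio of 1.25 [0.717 to 2.18]. Between the ligands, FGF1 over PDGFA, the ratio was 0.808 [0.461 to 1.42] for Ephb2, 0.803 [0.438 to 1.47] for Ephb6 and 1.17 [0.679 to 2.003] for Ephb3.

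Of the ephrin-B ligands, which are transmembrane proteins that also signal in reverse, Efnb2 had 41.3 FPKM in PDGFA cells and 41.0 FPKM in FGF1 cells, against 42.1 FPKM in starved cells. Efnb1 had 32.0 FPKM in PDGFA cells and 30.99 FPKM in FGF1 cells, against 29.0 FPKM in starved cells. The PDGFA ratio was 0.980 [0.595 to 1.61] for Efnb2 and 1.10 [0.662 to 1.83] for Efnb1, so both are bounded inside 2-fold. Among the GPI-anchored ephrin-A ligands, Efna4 had 14.003 FPKM in PDGFA cells and 13.7 FPKM in FGF1 cells, against 15.6 FPKM in starved cells, an FGF1 ratio of 0.874 [0.542 to 1.41]. Efna5 had 15.0 and 13.4 FPKM in PDGFA and FGF1 cells, against 14.5 FPKM in starved cells. Efna3 had 6.30 and 6.27 FPKM in PDGFA and FGF1 cells, against 6.32 FPKM in starved cells. Efna1, Efna3 and Efna4 lie close together on chromosome 3, between positions 89271730 and 89338028. As deposited, all 3 had their highest estimate in starved cells and their lowest in FGF1 cells, inside overlapping intervals. That order changed with the processing. Efna3 stood above starved cells with PDGFA under another scaling, and with FGF1 under quantile normalization. Under quantile normalization, and with the trend removed, Efna3 and Efna4 stood higher with FGF1 than with PDGFA. Antisense genes overlap exons of Efna3, Efna4, Sema4c and Plxna1, at most 14.1% of the exon bases, and reads from both strands may be counted together there. Efna2 had 4.05 FPKM in PDGFA cells and 2.75 FPKM in FGF1 cells, against 3.14 FPKM in starved cells, but its locus in the table is shared with other rows, 47 in all, each of its intervals reaches 0, and no ratio is read from it. By point estimate alone Efna2 stands among the extremes, with a log2 fold of 0.32 with PDGFA and of −0.48 for FGF1 over PDGFA.

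**Figure D4:**
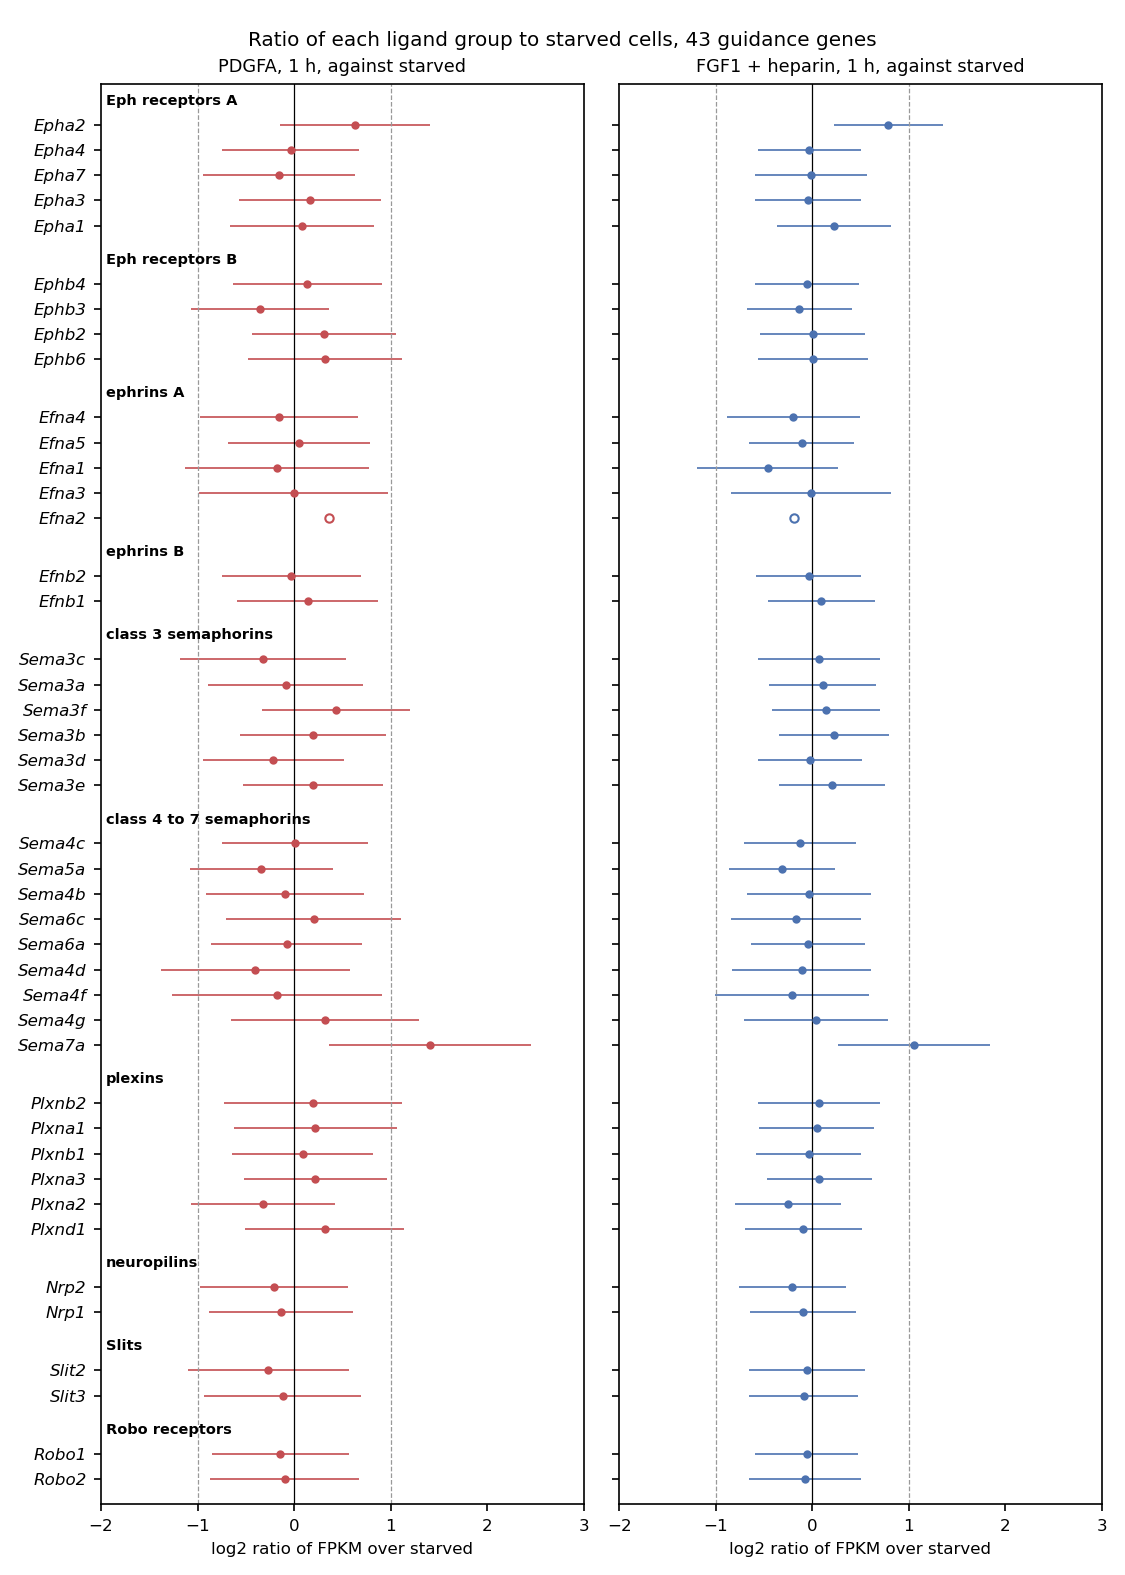
Log2 ratio of FPKM over starved cells for 43 guidance genes with PDGFA (left) and FGF1 with heparin (right), with intervals from the deposited bounds; dashed lines mark 2-fold and open circles Efna2, which has no usable interval. The interval stays clear of 0 for Sema7a with PDGFA and for Epha2 and Sema7a with FGF1. The share of all compared rows with such intervals was not counted.

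The class 3 semaphorins, secreted ligands of neuropilin and plexin complexes, were the most abundant family and summed to 291 FPKM in PDGFA cells and 347 FPKM in FGF1 cells, against 326 FPKM in starved cells. Sema3c made up most of that sum, with 176 FPKM [82.3 to 270.1] in PDGFA cells and 232 FPKM [151 to 313] in FGF1 cells, against 221 FPKM [161 to 280.0] in starved cells. Its PDGFA ratio was 0.799 [0.440 to 1.45], and its ratio of FGF1 over PDGFA, 1.32 [0.696 to 2.49], was the largest of the 43 genes. Sema3f, a neuropilin-2 ligand, had 37.2 FPKM [19.4 to 55.0] in PDGFA cells and 30.4 FPKM [20.9 to 40.0] in FGF1 cells, against 27.6 FPKM [21.2 to 33.8] in starved cells. The PDGFA ratio was 1.3499 [0.795 to 2.29], and the log2 fold of 0.43 was 0.19 with the trend removed. Sema3a, a neuropilin-1 ligand, had 37.5 FPKM in PDGFA cells and 42.9 FPKM in FGF1 cells, against 39.8 FPKM in starved cells. Sema3b had 16.1 and 16.5 FPKM in PDGFA and FGF1 cells, against 14.1 FPKM in starved cells, an FGF1 ratio of 1.17 [0.789 to 1.73]. Sema3e, which binds plexin D1 without a neuropilin, had 11.2 FPKM in both ligand groups, against 9.71 FPKM in starved cells, an FGF1 ratio of 1.15 [0.788 to 1.68]. Sema3d had 11.8 and 13.47 FPKM in PDGFA and FGF1 cells, against 13.7 FPKM in starved cells. None of the 6 differed from starved cells beyond its intervals. Sema3a, Sema3c, Sema3d and Sema3e all lie on chromosome 5, and Sema3b and Sema3f on chromosome 9.

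The membrane-bound semaphorins of classes 4 to 7 were low, and 9 of 13 were compared. Sema4c, a plexin-B2 ligand, led with 8.36 FPKM in PDGFA cells and 7.62 FPKM in FGF1 cells, against 8.30 FPKM in starved cells. Sema5a had 4.15 FPKM in PDGFA cells and 4.23 FPKM in FGF1 cells, against 5.24 FPKM in starved cells. Its ratios of 0.792 [0.475 to 1.32] with PDGFA and 0.807 [0.550 to 1.18] with FGF1 put it among the 5 lowest in both comparisons. Sema4d, the plexin-B1 ligand, had 1.12 FPKM in PDGFA cells and 1.38 FPKM in FGF1 cells, against 1.48 FPKM in starved cells, with a PDGFA ratio of 0.758 [0.384 to 1.495] and an FGF1 over PDGFA ratio of 1.23 [0.599 to 2.51]. Sema6c had 3.56 FPKM in PDGFA cells and 2.76 FPKM in FGF1 cells, against 3.09 FPKM in starved cells, and 0.774 [0.393 to 1.52] for FGF1 over PDGFA. Sema6a, Sema4b, Sema4f and Sema4g had between 1.03 and 3.29 FPKM in all groups, with overlapping intervals. Of the 9, Sema7a was the one with ratio intervals that excluded 1, and the share of all rows with such intervals was not counted.

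The plexins, the semaphorins' signalling receptors, summed to 274 FPKM in PDGFA cells and 248 FPKM in FGF1 cells, against 239 FPKM in starved cells. Plxnb2 had 158 FPKM [65.4 to 250.03] in PDGFA cells and 144 FPKM [92.6 to 196] in FGF1 cells, against 137 FPKM [102 to 173] in starved cells. Plxna1, a partner of the neuropilins, had 89.8 FPKM in PDGFA cells and 79.6 FPKM in FGF1 cells, against 77.1 FPKM in starved cells. Both had their highest estimate with PDGFA, where the intervals were widest. Plxna2 had 3.87 FPKM in PDGFA cells and 4.06 FPKM in FGF1 cells, against 4.84 FPKM in starved cells, with ratios of 0.7997 [0.478 to 1.34] with PDGFA and 0.839 [0.573 to 1.23] with FGF1. Plxnd1, the receptor of Sema3e, had 3.28 FPKM in PDGFA cells and 2.47 FPKM in FGF1 cells, against 2.64 FPKM in starved cells, and 0.753 [0.405 to 1.40] for FGF1 over PDGFA. Plxnb1 and Plxna3 had between 7.47 and 9.07 FPKM in all groups. By point estimate 5 of 6 compared plexins stood above starved cells with PDGFA, but 2 of 6 did with the trend removed, and 3 of 6 with FGF1, where trend removal and quantile normalization each left 1.

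The compared neuropilin, Slit and Robo genes had their highest estimate in starved cells, each inside overlapping intervals, except that Robo2 stood slightly above starved cells with both ligands once the trend was removed. Nrp2 had 46.0 FPKM in PDGFA cells and 46.2 FPKM in FGF1 cells, against 53.2 FPKM in starved cells, an FGF1 ratio of 0.868 [0.590 to 1.28]. Nrp1, also a VEGF co-receptor, had 24.8 and 25.4 FPKM in PDGFA and FGF1 cells, against 27.2 FPKM in starved cells. Slit2 had 80.7 FPKM in PDGFA cells and 93.6 FPKM in FGF1 cells, against 97.0 FPKM in starved cells, and FGF1 over PDGFA gave 1.16 [0.625 to 2.15]. Slit3 had 65.3 and 66.9 FPKM in PDGFA and FGF1 cells, against 71.0 FPKM in starved cells. Robo1, a Slit receptor, had 10.2 and 10.8 FPKM in PDGFA and FGF1 cells, against 11.2 FPKM in starved cells. Robo2 had 4.03 and 4.09 FPKM in PDGFA and FGF1 cells, against 4.31 FPKM in starved cells. On this per-length scale the Slit genes far exceeded the Robo genes. The family sums were 146 FPKM for Slits and 14.3 FPKM for Robos in PDGFA cells, 160.5 and 15.0 FPKM in FGF1 cells, and 168 and 15.7 FPKM in starved cells.

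The 17 genes under 1 FPKM in every group were 4 EphA receptor genes (Epha5, Epha6, Epha8 and the kinase-inactive Epha10), Ephb1, Efnb3, Sema3g, 4 membrane semaphorins (Sema4a, Sema5b, Sema6b and Sema6d), 3 plexins (Plxna4, Plxnb3 and Plxnc1), Slit1, Robo3 and Robo4. Plxna4 came nearest to the minimum, with 0.697 FPKM in PDGFA cells and 0.750 FPKM in FGF1 cells, against 0.739 FPKM in starved cells. Just above the minimum, Sema4f had 1.05 and 1.03 FPKM in PDGFA and FGF1 cells, against 1.18 FPKM in starved cells. Robo4, known as an endothelial receptor, was listed at 0 in all groups, and its neighbour on chromosome 9, Robo3, a receptor of commissural axons, reached 0.136 FPKM at most.

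PDGFA folds followed base composition. Over 11510 rows the rank correlation of GC content with the PDGFA log2 fold was 0.60, and over the 43 guidance genes 0.52. With FGF1 these were 0.18 and 0.00. Points share libraries, and the values are descriptions. The 15 guidance genes with the lowest GC content (39.2% to 50.0%) had a median PDGFA log2 fold of −0.14, the middle 14 of −0.05 and the 14 highest (57.3% to 63.5%) of 0.19. Among AT-rich genes with negative PDGFA log2 folds, Sema3d went from −0.21 to −0.02 with the trend removed. Sema3c moved less, from −0.32 to −0.24, and so did Slit2, from −0.26 to −0.23. Among GC-rich genes with positive folds, Ephb6 went from 0.31 to 0.08, Sema3f from 0.43 to 0.19 and Plxnd1 from 0.27 to 0.04. The part of base composition in the single PDGFA values was not tested beyond the detrended folds. Other genes went against the relation with GC content. GC-rich Ephb3 had a log2 fold of −0.35, or −0.59 with the trend removed. The AT-rich Sema3e and Epha3 had log2 folds of 0.19 and 0.16, or 0.35 and 0.32 with the trend removed.

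**Figure D5:**
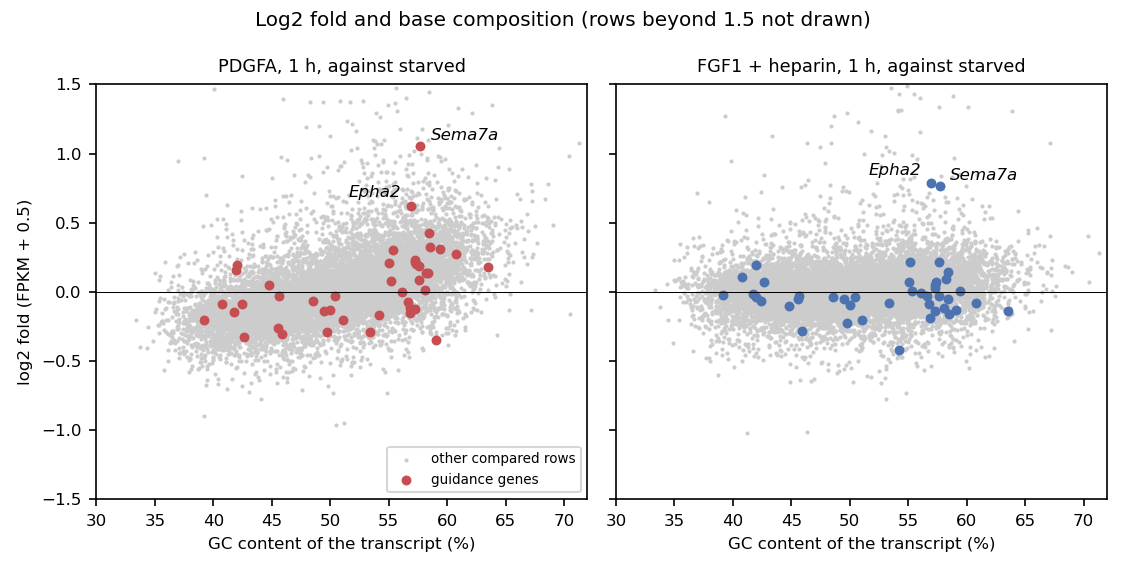
Log2 fold against transcript GC content (%) for PDGFA (left) and FGF1 with heparin (right) over starved cells; colored points are the 43 guidance genes and grey points other compared rows. The cloud slopes upward with PDGFA, rank correlation 0.60, and is nearly level with FGF1, 0.18, and Epha2 and Sema7a are the highest colored points in both.

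Genes of signalling and binding partners of these receptors were also uncalled: 0 of 75 compared, out of 85 on 3 lists. At the shares of all rows called, 0.308% with PDGFA, 0.555% with FGF1 and 0.12% between the ligands, that many genes would hold less than 1 call in each comparison. Of 26 compared Eph and ephrin partners, 18 stood above starved cells with PDGFA and 15 with FGF1, with median log2 folds of 0.10 and 0.01. Of all compared rows, 49.3% stood above starved cells with PDGFA and 56.0% with FGF1. The folds of partner genes are given without removal of the trend on GC content, length and level. Kalrn, an exchange factor downstream of EphB receptors, had 11.5 FPKM in PDGFA cells and 7.09 FPKM in FGF1 cells, against 7.21 FPKM in starved cells. Nck1, an adaptor, had 14.3 and 17.2 FPKM in PDGFA and FGF1 cells, against 20.2 FPKM in starved cells. The other extremes of this list were Sh2d3c (log2 fold 0.34) and Pik3r1 (−0.32) with PDGFA, Abl2 (0.45), Nck2 (0.23), Pik3r1 (−0.25) and Nck1 (−0.22) with FGF1, and Sdcbp (0.29), Abl2 (0.27), Kalrn (−0.66) and Rgs3 (−0.30) for FGF1 over PDGFA.

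Of 26 compared semaphorin and plexin partners, 17 stood above starved cells with each ligand, with medians of 0.13 with PDGFA and 0.06 with FGF1. Over all rows the shares above starved cells were 49.3% with PDGFA and 56.0% with FGF1. Rnd1, a small GTPase that binds plexins, had 6.21 FPKM in PDGFA cells and 5.60 FPKM in FGF1 cells, against 4.48 FPKM in starved cells. Rras, a target of the plexins' GAP domain, had 114 and 112 FPKM in PDGFA and FGF1 cells, against 91.2 FPKM in starved cells. The other extremes were Dpysl4 (0.39), L1cam (−0.14) and Itgb1 (−0.14) with PDGFA, Dpysl2 (−0.21) and Gsk3b (−0.10) with FGF1, and Itgb1 (0.27), Crmp1 (0.23), Dpysl2 (−0.34) and Fes (−0.28) for FGF1 over PDGFA. Of 23 compared Slit and Robo partners, 12 stood above starved cells with each ligand, beside the same shares of all rows, with medians of 0.05 and 0.01. Gpc1, a proteoglycan that binds Slits, had 61.8 FPKM in PDGFA cells and 46.1 FPKM in FGF1 cells, against 42.4 FPKM in starved cells. Further extremes were Cables1 (0.42), Flrt2 (−0.28) and Sos1 (−0.27) with PDGFA, Ntn4 (0.21), Vasp (0.20), Sos1 (−0.18) and Flrt3 (−0.17) with FGF1, and Cdc42 (0.29), Rhoa (0.25), Cables1 (−0.50) and Gpc1 (−0.42) for FGF1 over PDGFA.

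The cells carried the markers of their label. Of 20 palatal mesenchyme markers 18 reached 1 FPKM, Tbx22 stayed under 0.1 FPKM and Col1a1 is a failed estimate in the table. Epithelial markers summed to 6.03 FPKM in PDGFA cells and 4.83 FPKM in FGF1 cells, against 3.67 FPKM in starved cells, with 11 of 12 under 1 FPKM and Shh listed at 0. Endothelial markers summed to 13.1 and 12.8 FPKM in PDGFA and FGF1 cells, against 13.1 FPKM in starved cells, with 7 of 11 under 1 FPKM, Tie1 at 0, and most of the sum from Flt1. Glial and neuronal markers summed to 95.4 and 88.0 FPKM in PDGFA and FGF1 cells, against 78.4 FPKM in starved cells, nearly all from Stmn2 and Tubb3. Blood cell markers summed to 25.5 and 25.9 FPKM in PDGFA and FGF1 cells, against 24.4 FPKM in starved cells, nearly all from Cd34. Skeletal muscle markers stood apart with PDGFA, at 109.5 FPKM in PDGFA cells and 30.6 FPKM in FGF1 cells, against 23.6 FPKM in starved cells. Most of each sum came from Acta1. With PDGFA 2 of the 9, Acta1 and Actc1, were called higher, against 0.308% of all compared rows. Of the 9, 4 were under 1 FPKM in all groups, while Myog and Tnni1 passed 1 FPKM only in PDGFA cells. The part of muscle cells in the PDGFA values of the guidance genes was not tested.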

How the data were processed

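PolyA RNA-seq of 11 libraries in 3 groups was used. Genome build mm10 and the tools TopHat, Cuffdiff and CASAVA are named, per the submitters' processing notes, while versions, settings, annotation, strandedness and the treatment of reads with several matches are not given. Per the file headers, the deposited values are FPKM, 1 per group, each with 2 interval bounds whose confidence level is unstated. FPKM is relative to the library total, so large changes elsewhere can move a gene. With no value per library, no model over replicates could be fitted. A row counted as called if the 2 deposited intervals did not overlap and each contained its own FPKM.

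Rows needed 1 FPKM in a group and no failed estimate (2 failed). Folds used a pseudocount of 0.5 FPKM. Accessions were matched to RefSeq GRCm38.p6 for 22992 rows and to GENCODE for 126, and 168 stayed unnamed. GC content, length, exon overlaps and shared 31-base words came from GENCODE transcripts, and no guidance gene shared more than 5.24% of its words with another locus. Alternatives covered pseudocount, minimum, scaling, quantile normalization, a cubic robust trend on GC, length and level, and z values from the intervals with Benjamini-Hochberg adjustment at 0.05. The call rule and the trend were tested on simulated data, and the z values were not. Every guidance gene is named, with ratio intervals for the 5 highest and 5 lowest log2 folds per comparison, and for partner lists the 2 highest and 2 lowest. The members and lists were chosen with earlier results of these data known. Software was matplotlib 3.10.9, statsmodels 0.14.6, pandas 2.3.3, numpy 2.4.6 and scipy 1.17.1 under Python 3.11.15.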

Additional observations from a re-analysis of the deposited data

How the results depend on the processing

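The count of guidance genes called was 0 in each of 3 comparisons under all 24 combinations of comparison and processing setting set out for this report. With the rescaled z value, added after the data were seen, it was 1 with PDGFA (Sema7a) and 3 with FGF1 (Epha2, Sema7a and Efna1), against 0 by the deposited intervals, and 0 between the ligands. The median log2 fold of the guidance genes stayed between −0.05 and 0.00 with PDGFA, between −0.05 and −0.02 with FGF1 and between −0.02 and 0.03 for FGF1 over PDGFA. For genes among the 5 highest or 5 lowest in a comparison, 423 single log2 folds were recomputed. Each moved by less than its own interval-based error, 15 of them to the other sign, from values of at most 0.18 in size. Genes outside this set also changed sign, some from larger values. With the trend removed, the PDGFA log2 fold of Plxna1 went from 0.22 to −0.02 and that of Plxnb2 from 0.20 to −0.05. Counts over all rows moved more. With FGF1, z values gave 34 and rescaled z values 434 called rows in place of 65. With PDGFA the rescaled z gave 191 in place of 36. For FGF1 over PDGFA the counts were 33 with z values, 211 with rescaled z values and 8 with a minimum of 5 FPKM, in place of 14. No paired analysis was possible because the table holds 1 value per group, and leaving out single libraries was not run for the same reason. The width of the intervals, a median of 48.5% of the FPKM in PDGFA cells and 32.4% in FGF1 cells, against 22.5% in starved cells, limits what could be called.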

Other observations

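Over the 53 genes with a RefSeq window, the rank correlation of the CpG ratio (observed over expected) with FPKM in starved cells was 0.13, as a description. The median CpG ratio was 0.658 over the 69 guidance windows, against 0.384 over all 32851 windows.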
